A study of Mus musculus with 36 samples.

Results

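The nuclear genes of the mitochondrial respiratory chain were chosen by name, as every gene whose only symbol on the array began with Nduf, Uqcr, Atp5, Sdha, Sdhb, Sdhc, Sdhd, Cox4, Cox5, Cox6, Cox7 or Cox8. This rule gave 94 of the 18193 genes with a single symbol, carried by 185 of the 45037 probe sets tested. By symbol, 36 genes belonged to complex I, 4 to complex II, 8 to complex III, 17 to complex IV and 17 to complex V, and 12 were assembly factors (Ndufaf1 to Ndufaf8 and Sdhaf1 to Sdhaf4). The rule used no measured value, no gene was filtered out, and all 94 were tested.

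The respiratory chain lies in the inner mitochondrial membrane. Complex I (NADH dehydrogenase) and complex II (succinate dehydrogenase) pass electrons to ubiquinone, complex III passes them to cytochrome c, and complex IV (cytochrome c oxidase) passes them to oxygen. Complexes I, III and IV pump protons, and complex V (ATP synthase) uses the returning protons to make ATP. Most subunits are encoded in the nucleus and imported, and assembly factors build the complexes without staying in them. Neurons draw most of their ATP from this chain, and hepatocytes use it for fat oxidation and for gluconeogenesis.

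Whole brain and liver of male mice aged 12 to 13 weeks were measured in inbred strains DBA/2J, AKR/J and C57BL/6J, for which the labels name no introduced allele. In each strain, mice deprived of sleep for 6 h were set against controls, and the titles place the killing of both at Zeitgeber time (ZT) 6, that is 6 h after lights on. Each of the 12 groups (2 tissues, 3 strains, 2 conditions) had 3 Affymetrix arrays, and each array carried RNA pooled from 3 mice. The replicates are therefore pools, and the spread is that between pools and not between single mice. In each tissue, AKR/J control arrays 2 and 3 have a source name that gives ZT 0 against ZT 6 in their titles, and they were kept as ZT 6 controls. Values are log2 expression values, a difference of 1 is a doubling, and a called gene is one with a Benjamini-Hochberg adjusted p under 0.05 in limma over all probe sets tested.

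Arrays of a tissue correlated at 0.980 to 0.996 in liver and 0.978 to 0.997 in brain. Hepatocyte markers averaged 13.65 to 14.11 on the log2 scale in liver arrays, where neuronal markers averaged 4.27 to 4.61. In brain arrays, neuronal markers averaged 11.36 to 11.53 and hepatocyte markers 6.17 to 6.67. One liver array, sleep-deprived DBA/2J array 2, carried a skeletal muscle signal that is described with the complex IV isoforms. In brain, 5 arrays with a narrow spread of values or a raised beta-actin 3' to 5' difference, a sign of RNA quality, are called the doubted arrays, and results that move without them are given both ways. Among them, the sleep-deprived arrays DBA/2J 2, AKR/J 3 and C57BL/6J 1 had the respiratory chain genes lowest, with a median deviation of -0.10 from each gene's brain mean on each. The median deviation of all genes was -0.08, 0 and -0.01 on these arrays in the same order. On DBA/2J array 2 the shift was thus mostly one of all genes. Pituitary markers, from tissue that can adhere to a dissected brain, averaged 7.23 to 8.80 in sleep-deprived AKR/J brain and 4.95 to 5.24 in AKR/J controls, and the part of this in the brain results was not tested. In both tissues most of the 94 genes gave a strong signal, as the best probe set of 75 genes in liver and of 73 in brain lay among the brightest 10% of all probe sets. Dim signals belonged mainly to isoforms of complex IV known from muscle, testis or lung (Cox7a1, Cox8b, Cox7b2 and Cox4i2), and also to the probe sets of Cox7c and Ndufb4.

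Losing 6 h of sleep left the structural subunits of the chain close to control in both tissues. Of the 94 genes, 0 were called in liver and 1 in brain for the mean change over the 3 strains. The called gene was Sdhaf1, which encodes a factor that helps insert iron-sulfur clusters into complex II, and it was lower in sleep-deprived brain. Over all genes, 4.88% were called in liver and 2.55% in brain. Among genes as bright as most members, with a level among the brightest 10% of probe sets, 8.80% of 2863 were called in liver against 0 of 75 members, and 3.73% of 2845 in brain against 0 of 73 members. At an unadjusted p under 0.05 from limma, 7 of the 94 genes passed in liver (7.45%, against 19.0% of all genes) and 3 in brain (3.19%, against 15.5%). The median change of the 94 genes, sleep-deprived minus control, was 0.02 in liver and 0.00 in brain, beside -0.02 and -0.01 over all genes. Without the doubted arrays the brain median was 0.05 and 73 of the 94 changes were positive, against 46 over all 18 brain arrays. In AKR/J brain alone the median moved from 0.04 (67 positive) to 0.10 (81 positive). The flat brain median thus depends on which arrays are kept, and the part of array quality was not tested. The median over all genes without the doubted arrays is not given here. The move of the members is therefore not set apart from a move of all genes. In whole tissue, fewer cells of a type and less RNA per cell cannot be told apart.

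**Figure D1:**
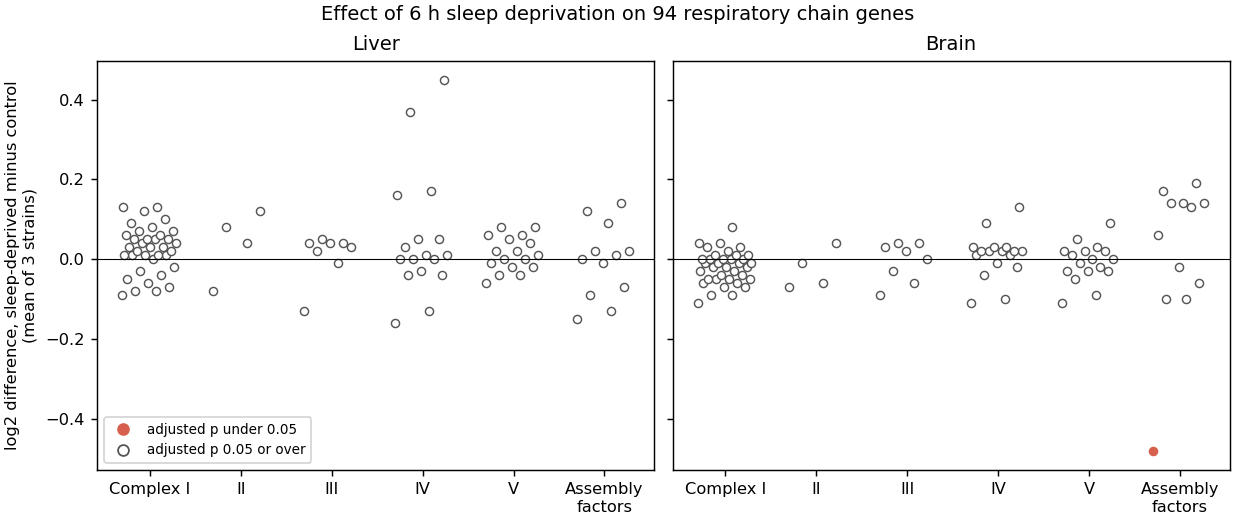
Mean log2 change with sleep deprivation over the 3 strains (vertical axis, sleep-deprived minus control) for each of the 94 genes, grouped by complex, in liver (left) and brain (right). One point is one gene, and a filled point has an adjusted p under 0.05 in limma. The subunits lie near 0 in both tissues, Cox7a1 and Cox8b stand highest in liver at 0.45 and 0.37 (0.10 and -0.07 without the array that carried muscle transcripts) and are not called, and Sdhaf1 stands lowest in brain at -0.48.

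The 82 subunits bound the size of a change that these arrays could have missed. In brain, their mean changes ran from -0.11 (Ndufs3, Cox7a2l and Atp5pb) to 0.13 (Cox8b), and 0 of 82 passed even an unadjusted p under 0.05. The 95% interval of the mean change stayed within 0.25 of 0 on the log2 scale for 78 of the 82, and the 4 others were Atp5pb, Cox7c, Cox8b and Cox8c. In liver the same held for 73 of 82, and the changes ran from -0.16 (Cox7b2) to 0.45 (Cox7a1). Without the liver array that carried muscle transcripts, the changes of the muscle isoforms were 0.10 for Cox7a1, -0.07 for Cox8b and -0.10 for Cox6a2, against 0.45, 0.37 and 0.17 with it, and none was called either way. The 9 others in liver were Cox6a2, Cox7a1, Cox7b2, Cox7c, Cox8b, Cox8c, Ndufa10, Ndufa4l2 and Uqcr10. The smallest adjusted p among liver members were 0.164 for Ndufab1, the mitochondrial acyl carrier protein (0.13 ± 0.05), and 0.212 for the complex I subunit Ndufb10 (0.12 ± 0.05). The number after ± is limma's standard error, with 3 arrays in each group.

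The same held for the best known subunits of each complex. In complex I, the 36 genes had a median change of 0.03 in liver and -0.02 in brain. Ndufs1, the large iron-sulfur subunit, changed by 0.07 in liver and -0.05 in brain, and Ndufv1, which binds NADH, by 0.05 in liver and -0.09 in brain, with 0 of these called. In complex II, Sdha, the flavoprotein that oxidises succinate, changed by 0.08 in liver and -0.01 in brain, and the membrane subunit Sdhc by 0.12 and -0.07, again with no call. In complex III, the Rieske protein Uqcrfs1 changed by 0.04 in liver and 0.00 in brain. In complex IV, Cox4i1 changed by 0.03 in liver and 0.02 in brain. Cox7a2l, which joins complexes III and IV in supercomplexes, changed by -0.04 in liver and -0.11 in brain with adjusted p of 0.825 and 0.427 in limma. In complex V, the catalytic beta subunit Atp5b changed by 0.08 in liver and 0.02 in brain, and Atp5k, the e subunit, by -0.06 and 0.09. Ndufa4, named after complex I but now placed in complex IV, changed by 0.05 in liver and 0.01 in brain.

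Within single strains, 0 of the 94 genes were called in either tissue. The share of all genes called was 0.846% in DBA/2J, 1.03% in AKR/J and 0.803% in C57BL/6J liver, and 0.148%, 0.423% and 0.055% in the brains of DBA/2J, AKR/J and C57BL/6J. The test of whether the effect differed between strains called 0 members in liver (0.033% of all genes) and 0 in brain (0% of all genes). At an unadjusted p under 0.05 from limma it passed for 0 members in liver and for 1 in brain, the muscle isoform Cox7a1, with an adjusted p of 1. The difference between liver and brain in the mean effect called 0 of 94, beside 1.95% of all genes, and 4 passed an unadjusted p under 0.05. The smallest adjusted p of that comparison was 0.248, for the complex I subunit Ndufa10, which changed by 0.13 in liver and -0.09 in brain.

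Sdhaf1 was lower in sleep-deprived brain in each strain. In DBA/2J brain it measured 6.02, 5.42 and 6.11 after sleep deprivation, against 6.65, 6.43 and 6.47 in controls. In AKR/J brain the values were 6.97, 6.73 and 6.28 after sleep deprivation, against 7.27, 7.0 and 7.0 in controls. In C57BL/6J brain they were 6.44, 6.58 and 6.71 after sleep deprivation, against 6.95, 6.83 and 6.96 in controls. Each sleep-deprived array thus lay below each control array of its own strain. The mean change was -0.48 ± 0.10 with an adjusted p of 0.020, and within strains it was -0.67 ± 0.17 for DBA/2J, -0.43 ± 0.17 for AKR/J and -0.34 ± 0.17 for C57BL/6J, none of which was called alone. A share of 1.60% of all genes was called lower in sleep-deprived brain.

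The call on Sdhaf1 was close to the threshold. In each strain its lowest brain value belonged to the sleep-deprived array of narrow spread. Without all 5 doubted brain arrays the change was -0.34 with an adjusted p of 0.0126. Without the 2 AKR/J controls of conflicting ZT it was -0.54 with an adjusted p of 0.0597, so the call was lost while the change was not smaller. Without AKR/J control array 1 it was -0.45 with an adjusted p of 0.0542. In liver, Sdhaf1 measured 6.26, 6.35 and 6.29 in sleep-deprived DBA/2J, against 6.80, 6.51 and 6.42 in DBA/2J controls, and the groups overlapped in AKR/J and C57BL/6J. The mean liver change was -0.15 ± 0.08 with an adjusted p of 0.350, and the difference between tissues was 0.32 ± 0.13, liver minus brain, with an adjusted p of 0.277. The gene has 1 probe set, so no other probe set bears on it.

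The other assembly factors did not share the direction of Sdhaf1 as a group. In brain, 7 of the 12 had a positive mean change and 5 a negative one, and the median was 0.09. Without the doubted arrays, 4 of the 94 genes were called in brain, beside 5.53% of all genes in the same fit on 13 arrays, and all 4 were assembly factors. Besides Sdhaf1, these were the complex I factors Ndufaf4 (0.27, adjusted p 0.0168), Ndufaf5 (0.26, adjusted p 0.0224) and Ndufaf2 (0.25, adjusted p 0.0347), all higher after sleep deprivation. Over all 18 brain arrays their changes were 0.19, 0.14 and 0.14, with adjusted p of 0.406, 0.574 and 0.502 in limma. Ndufaf4 measured 7.70, 7.21 and 7.47 in sleep-deprived DBA/2J brain, against 7.14, 7.22 and 7.11 in controls, and the overlap came from array 2. In AKR/J brain Ndufaf4 measured 7.49, 7.55 and 6.97 after sleep deprivation, against 7.25, 7.11 and 7.25 in controls, and array 3 lay below all 3 controls. The part of array quality in these differences was not tested beyond leaving those arrays out.

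**Figure D2:**
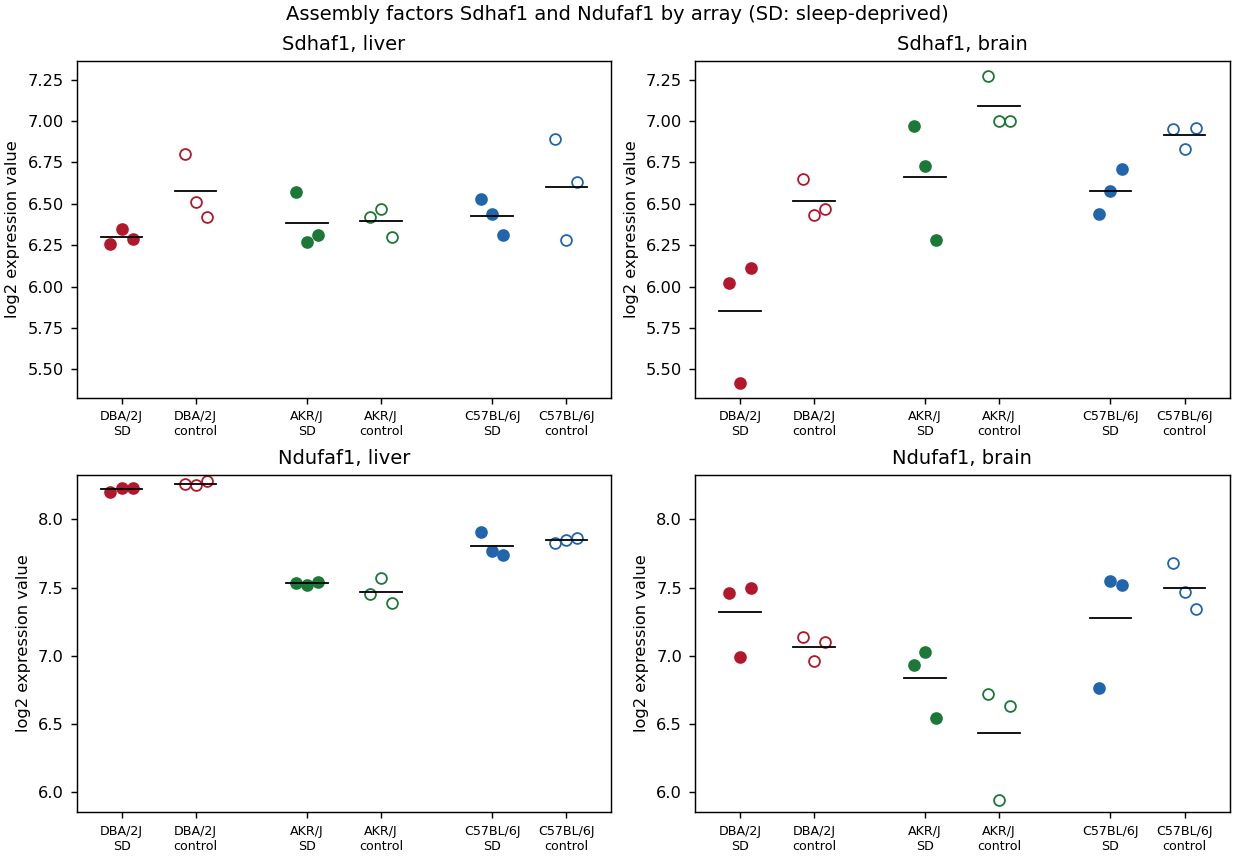
Log2 expression value of Sdhaf1 (top) and Ndufaf1 (bottom) on every array of liver (left) and brain (right), by strain, with sleep-deprived arrays filled and placed left of the open control arrays. Horizontal lines are group means of 3 arrays. Sdhaf1 in brain is lower on every sleep-deprived array than on the controls of its strain, and Ndufaf1 in liver separates the 3 strains at 8.20 to 8.28 in DBA/2J, 7.39 to 7.57 in AKR/J and 7.74 to 7.91 in C57BL/6J.

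The promoters of the genes on which the results turn are shown for reference, since respiratory chain genes are known to share binding sites of the nuclear respiratory factors. RefSeq windows on GRCm38.p6, which is the C57BL/6J sequence, reached from 250 bases before to 50 bases after the start of the gene and were found for 78 of the 94 genes, as 83 windows. The NRF1 motif, GCGCA and GCGC with any base between them, searched on both strands like the others, occurred in 24.1% of the member windows and in 4.60% of all 32851 windows. The ETS-type motif CCGGAAG, bound by GABP (also called NRF2), occurred in 26.5% of the member windows and 8.86% of all windows, and the YY1 motif AAGATGGCG in 8.43% and 1.40%. The ends of the ETS and YY1 motifs have letters in common, but 0 of the windows held matches of different motifs that overlapped. These are matches of letters and not measured binding. The windows that follow are each 5′ to 3′ on the strand of the gene, with motif matches in capitals. The windows belong to the assembly factors Sdhaf1 and Ndufaf1, then to 3 of the genes that were lower in C57BL/6J liver. They lie at chr7:30322326-30322625 (Sdhaf1, minus strand, ETS match), chr2:119662785-119663084 (Ndufaf1, minus strand, ETS match), chr9:50603800-50604099 (Sdhd, minus strand, NRF1 and ETS matches), chr10:80249199-80249498 (Ndufs7, plus strand, YY1 match) and chr11:96075582-96075881 (Atp5g1, minus strand, no match of the 3 motifs).
Sdhaf1: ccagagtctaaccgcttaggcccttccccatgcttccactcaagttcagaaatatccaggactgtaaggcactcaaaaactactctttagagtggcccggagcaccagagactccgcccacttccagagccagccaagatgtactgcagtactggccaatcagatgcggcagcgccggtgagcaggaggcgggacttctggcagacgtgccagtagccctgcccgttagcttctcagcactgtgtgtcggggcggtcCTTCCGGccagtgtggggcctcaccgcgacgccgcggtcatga
Ndufaf1: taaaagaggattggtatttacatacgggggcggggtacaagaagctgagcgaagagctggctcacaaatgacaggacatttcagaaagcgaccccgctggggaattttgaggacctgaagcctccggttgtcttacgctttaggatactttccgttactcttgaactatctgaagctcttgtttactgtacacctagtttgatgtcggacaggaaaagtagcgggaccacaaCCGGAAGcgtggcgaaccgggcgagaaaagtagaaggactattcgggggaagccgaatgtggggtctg
Sdhd: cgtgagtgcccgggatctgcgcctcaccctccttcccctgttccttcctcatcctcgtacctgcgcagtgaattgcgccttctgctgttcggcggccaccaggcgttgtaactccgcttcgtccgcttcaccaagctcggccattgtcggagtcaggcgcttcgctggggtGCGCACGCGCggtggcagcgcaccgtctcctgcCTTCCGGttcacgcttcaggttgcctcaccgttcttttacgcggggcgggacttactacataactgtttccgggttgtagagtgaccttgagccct
Ndufs7: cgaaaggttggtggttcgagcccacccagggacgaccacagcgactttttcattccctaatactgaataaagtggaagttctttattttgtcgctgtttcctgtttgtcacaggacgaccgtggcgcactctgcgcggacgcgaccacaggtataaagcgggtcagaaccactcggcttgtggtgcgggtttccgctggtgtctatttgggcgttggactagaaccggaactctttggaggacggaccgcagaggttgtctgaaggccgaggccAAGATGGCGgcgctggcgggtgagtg
Atp5g1: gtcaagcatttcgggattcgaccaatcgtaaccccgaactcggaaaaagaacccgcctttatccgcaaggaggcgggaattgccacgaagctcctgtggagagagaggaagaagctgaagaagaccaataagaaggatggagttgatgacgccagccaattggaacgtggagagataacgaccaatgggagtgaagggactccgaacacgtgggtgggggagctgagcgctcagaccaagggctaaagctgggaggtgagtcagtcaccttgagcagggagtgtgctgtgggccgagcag

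Sleep deprivation moved few members, but the strains differed at many more of them, above all in liver. With each strain averaged over its 6 arrays, a difference between strains was called for 34 of the 94 genes in liver and for 9 in brain. Over all genes the shares called were 24.5% in liver and 7.28% in brain, and among genes in the brightest 10% 47.0% in liver, against 28 of 75 bright members (37.3%), and 11% in brain, against 5 of 73 (6.85%). The share of members called in liver was therefore above that of all genes and below that of genes with a like signal. Of the 34 liver genes and the 9 brain genes, 3 were shared, which is 8.82% of the liver list and 33.3% of the brain list: Ndufaf1, Atp5g1 and Ndufc2. How many of all genes were called in both tissues was not counted, so this overlap is no result about the respiratory chain.

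In each of the 2 liver comparisons with C57BL/6J, most called genes were lower in C57BL/6J. Of the 38 genes called in either comparison, 10 were called lower in C57BL/6J in both. Between DBA/2J and C57BL/6J, 22 genes were called (16.4% of all genes), of which 19 were higher in DBA/2J (10.9% of all genes) and 3 lower (5.55%). Between AKR/J and C57BL/6J, 27 genes were called (16.5% of all genes), of which 23 were higher in AKR/J (10.5% of all genes) and 4 lower (5.99%). Between DBA/2J and AKR/J, 8 genes were called (11.3% of all genes), with 4 higher in DBA/2J (6.56% of all genes) and 4 lower (4.74%). The median difference of the 94 genes was 0.08 for DBA/2J minus C57BL/6J and 0.10 for AKR/J minus C57BL/6J, beside 0.01 and 0.02 over all genes, and 77 and 75 of the 94 differences were positive. Genes in the brightest 10% of probe sets had medians of 0.07 and 0.08, with 23.0% called higher in DBA/2J and 23.9% called higher in AKR/J. The 75 bright members had medians of 0.09 and 0.13, with 65 and 63 positive, and shares of 21.3% (16 of 75) and 28% (21 of 75). The difference between bright members and bright genes was not tested. The 2 comparisons share the C57BL/6J arrays, so they are not independent of each other.

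**Figure D3:**
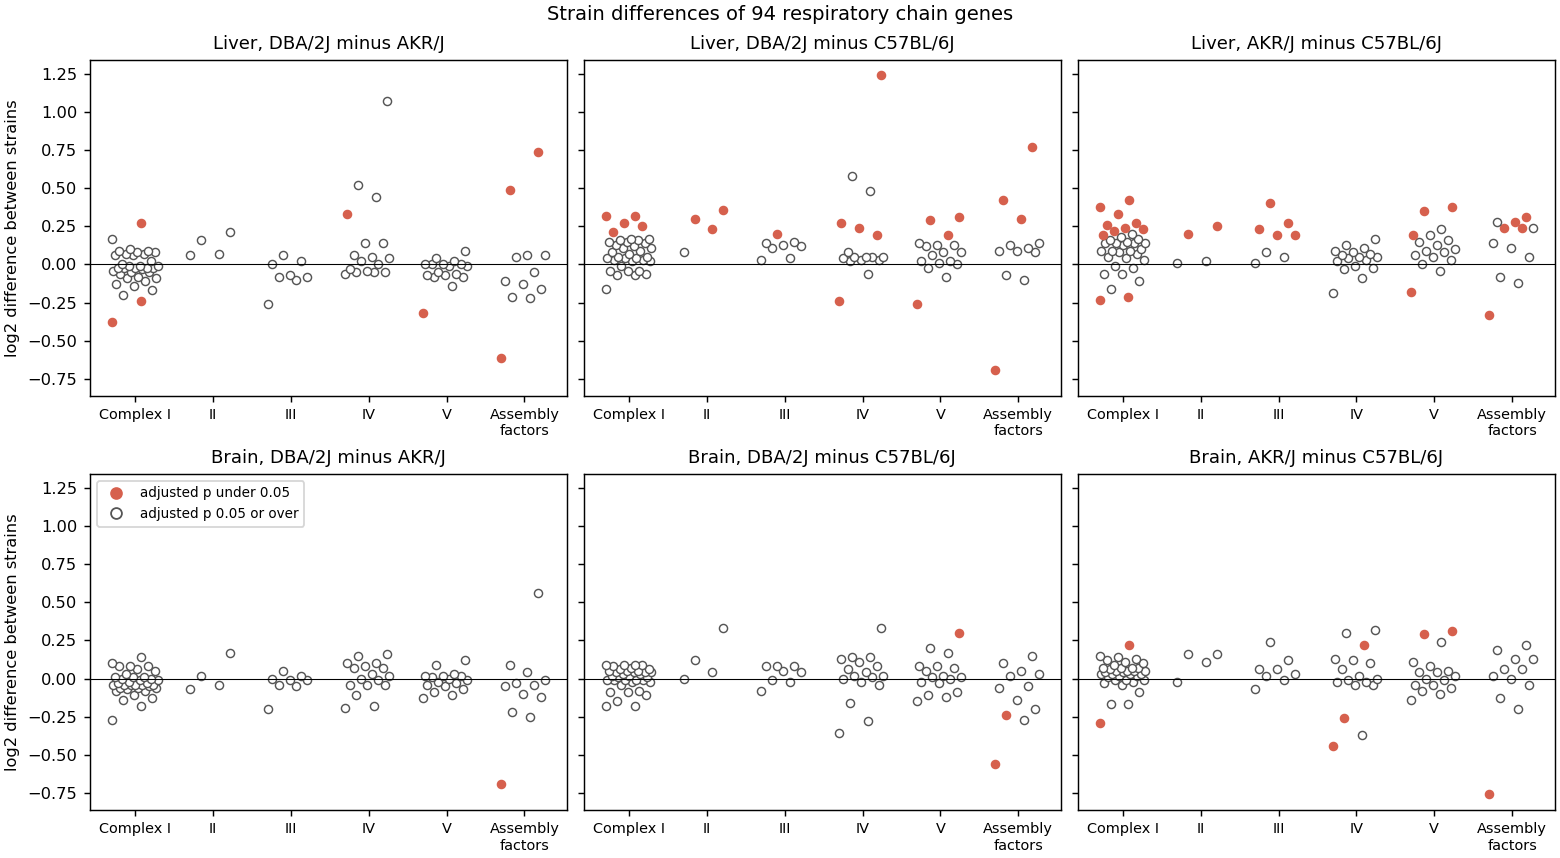
Log2 difference between strains (vertical axis) for each of the 94 genes by complex, for DBA/2J minus AKR/J, DBA/2J minus C57BL/6J and AKR/J minus C57BL/6J (columns), in liver (top) and brain (bottom), with 6 arrays per strain. Filled points have an adjusted p under 0.05 in limma. Most filled points in the liver comparisons with C57BL/6J lie above 0 (19 of 22 and 23 of 27), and the brain panels hold 1, 3 and 8 filled points.

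Genes called lower in C57BL/6J liver than in both other strains numbered 10, from complexes I, II, III and V and from the assembly factors. The share of all genes that met both calls was not counted. The single comparisons, with DBA/2J and with AKR/J, called 10.9% and 10.5% of all genes and 23% and 23.9% of bright genes in this direction. The 10 are therefore described singly and are no result about the respiratory chain as a whole. They were Ndufs1, Ndufs3, Ndufs7 and Ndufv3 of complex I, Sdhb and Sdhd of complex II, Uqcrc1 of complex III, Atp5g1 and Atp5o of complex V, and the assembly factor Ndufaf8. Atp5g1, one of 3 genes that encode the c subunit of the ATP synthase rotor, ran from 11.21 to 11.34 in DBA/2J (median 11.29), from 11.28 to 11.47 in AKR/J (median 11.35) and from 10.90 to 11.10 in C57BL/6J (median 10.96). The C57BL/6J arrays did not overlap the others, and the differences were 0.31 ± 0.06 for DBA/2J (adjusted p 0.000814) and 0.38 ± 0.06 for AKR/J (adjusted p 0.000112) over C57BL/6J. Ndufs7, an iron-sulfur subunit near the ubiquinone site, ran from 10.21 to 10.54 in DBA/2J (median 10.39), from 10.30 to 10.64 in AKR/J (median 10.38) and from 9.99 to 10.13 in C57BL/6J (median 10.05). It too had no overlap, with differences of 0.32 ± 0.06 (adjusted p 0.00229) and 0.38 ± 0.06 (adjusted p 0.000462).

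Sdhd, a membrane anchor of complex II, ran from 10.76 to 10.91 in DBA/2J (median 10.86), from 10.55 to 10.82 in AKR/J (median 10.71) and from 10.31 to 10.65 in C57BL/6J (median 10.50), so that AKR/J and C57BL/6J overlapped. Its differences over C57BL/6J were 0.36 ± 0.06 in DBA/2J (adjusted p 0.000361) and 0.20 ± 0.06 in AKR/J (adjusted p 0.0338). The iron-sulfur subunit Sdhb of the same complex was higher by 0.30 ± 0.06 in DBA/2J and by 0.25 ± 0.06 in AKR/J, with no overlap. Atp5o, which links the catalytic head of complex V to its stalk, was higher by 0.29 in DBA/2J and by 0.35 in AKR/J, also with no overlap. For the core protein Uqcrc1 of complex III the differences were 0.20 and 0.27, and DBA/2J and C57BL/6J overlapped. The adjusted p from limma for the 10 genes lay between 0.000112 (Atp5g1, AKR/J) and 0.0437 (Ndufv3, DBA/2J). Both calls were kept in every fit without 1 array for 6 of the 10 (Atp5g1, Atp5o, Ndufs1, Ndufs3, Ndufs7 and Sdhb), and single arrays ended a call on Sdhd, Uqcrc1, Ndufv3 and Ndufaf8. Without the 2 AKR/J controls of conflicting ZT, both calls were kept for 4 of the 10 (Atp5g1, Atp5o, Ndufs1 and Ndufs7).

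By complex, beside the 10.5% of all genes and 23.9% of bright genes called higher in AKR/J than in C57BL/6J liver, the count was 5 of 8 for complex III (Uqcr10, Uqcr11, Uqcrc1, Uqcrc2 and Uqcrfs1). Without Uqcr10, whose other probe sets run the opposite way, 4 of these called genes remained. The same call was made for 9 of 36 of complex I, 2 of 4 of complex II, 3 of 17 of complex V and 4 of 12 assembly factors. In complex IV, 0 of 17 genes were called in either direction in that comparison, and 1 passed an unadjusted p under 0.05. Beside 10.9% of all genes and 23% of bright genes, DBA/2J was called higher than C57BL/6J for 3 of 4 genes of complex II (Sdha, Sdhb and Sdhd), 5 of 36 of complex I, 1 of 8 of complex III, 4 of 17 of complex IV, 3 of 17 of complex V and 3 of 12 assembly factors. Only 9 of the 17 complex IV genes and 4 of the 12 assembly factors lay in the brightest 10% in liver. The share of bright genes is therefore a poor comparison for these 2 sets. A difference between complexes was not tested. Some genes set DBA/2J apart from both other strains. Cox5a, a nuclear subunit of complex IV, ran from 12.07 to 12.24 in DBA/2J liver, from 11.70 to 11.89 in AKR/J and from 11.83 to 11.94 in C57BL/6J, and its differences were 0.33 ± 0.05 over AKR/J (adjusted p 0.000431) and 0.24 ± 0.05 over C57BL/6J (adjusted p 0.006). Atp5h, a stalk subunit of complex V, was lower in DBA/2J liver by -0.32 ± 0.05 against AKR/J and by -0.26 ± 0.05 against C57BL/6J.

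Other measures moved with strain in liver. Red cell markers averaged 5.48 to 5.64 in DBA/2J, 5.31 to 5.56 in AKR/J and 5.23 to 5.39 in C57BL/6J, and hepatocyte markers 13.65 to 13.96, 13.72 to 13.92 and 13.83 to 14.11 in the same order of strains. The beta-actin 3' to 5' difference was 0.96 to 2.16 in DBA/2J, 1.10 to 1.45 in AKR/J and 1.00 to 1.25 in C57BL/6J, and the highest value belonged to DBA/2J control array 1. The part of cell composition or RNA quality in the strain differences was not tested. Without DBA/2J control array 1, 20 members were called for DBA/2J against C57BL/6J and 28 for AKR/J against C57BL/6J. Without the 2 AKR/J controls of conflicting ZT, 7 were called for AKR/J against C57BL/6J (6 higher; 9.49% of all genes in that fit) and 17 for any strain difference (18.8%), while the median difference of the 94 genes was 0.11 and 75 were positive.

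Several assembly factors differed between strains by more than the subunits just described. Ndufaf1, a chaperone for an early complex I intermediate, measured 8.20, 8.23 and 8.23 in sleep-deprived DBA/2J liver and 8.26, 8.25 and 8.28 in DBA/2J controls. In AKR/J liver it measured 7.53, 7.52 and 7.54 after sleep deprivation and 7.45, 7.57 and 7.39 in controls. In C57BL/6J liver it measured 7.91, 7.77 and 7.74 after sleep deprivation and 7.83, 7.85 and 7.86 in controls. The 3 strains did not overlap, and sleep-deprived and control arrays of a strain lay close together. The differences were 0.74 ± 0.05 for DBA/2J minus AKR/J (adjusted p 6.68e-09), 0.42 ± 0.05 for DBA/2J minus C57BL/6J (adjusted p 1.59e-05) and -0.33 ± 0.05 for AKR/J minus C57BL/6J (adjusted p 0.000261).

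In brain Ndufaf1 kept AKR/J lowest with a wider spread. It ran from 6.96 to 7.5 in DBA/2J brain (median 7.12), from 5.94 to 7.03 in AKR/J brain (median 6.67) and from 6.76 to 7.68 in C57BL/6J brain (median 7.5). AKR/J minus C57BL/6J was -0.76 ± 0.16 with an adjusted p of 0.00752, and AKR/J overlapped both other strains. Among sleep-deprived brain arrays alone it was -0.44 with an adjusted p of 0.540. DBA/2J minus AKR/J in brain was 0.56 ± 0.16 and not called (adjusted p 0.0689), and without the doubted arrays it was 0.56 and called (adjusted p 0.0318).

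Ndufaf6 and Ndufaf5, both needed for complex I assembly, differed in liver in opposite directions. Ndufaf6 ran from 6.35 to 6.74 in DBA/2J (median 6.62), from 6.99 to 7.46 in AKR/J (median 7.18) and from 7.07 to 7.66 in C57BL/6J (median 7.19). DBA/2J lay below both other strains without overlap, by -0.61 ± 0.09 against AKR/J (adjusted p 0.000107) and by -0.69 ± 0.09 against C57BL/6J (adjusted p 2.16e-05). Ndufaf5, which hydroxylates an arginine of Ndufs7, ran from 5.95 to 6.50 in DBA/2J, from 5.40 to 6.08 in AKR/J and from 5.25 to 5.82 in C57BL/6J. DBA/2J was higher by 0.49 ± 0.12 than AKR/J (adjusted p 0.0155) and by 0.77 ± 0.12 than C57BL/6J (adjusted p 0.00023), with an overlap between DBA/2J and AKR/J. The difference from AKR/J was no longer called in 2 of the 18 fits without 1 array (adjusted p up to 0.0517). In brain neither was called between any 2 strains. Sdhaf1 had the opposite tissue pattern, with DBA/2J lower in brain by -0.69 ± 0.12 against AKR/J (adjusted p 0.00225) and by -0.56 ± 0.12 against C57BL/6J (adjusted p 0.011), and differences of 0.05 and -0.07 in liver with no call.

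Brain strain differences were few and small among subunits. DBA/2J and AKR/J differed at 1 of the 94 genes (Sdhaf1, beside 3.38% of all genes), and DBA/2J and C57BL/6J at 3 (beside 4.45%), which were Sdhaf1, Ndufaf7 and Atp5g1. The Ndufaf7 call (-0.24, adjusted p 0.0336) was lost in 10 of the 18 fits that left out 1 array, with an adjusted p of up to 0.0937. AKR/J and C57BL/6J differed at 8 (beside 5.11% of all genes). Of these 8, Atp5g1 (0.31), Atp5g2 (0.29), Cox8a (0.22) and Ndufv3 (0.22) were higher in AKR/J (3.02% of all genes), and Ndufaf1 (-0.76), Cox6a2 (-0.44), Ndufc2 (-0.29) and Cox5b (-0.26) were lower (2.09%). Leaving out 1 of the 18 arrays ended the call on Ndufv3 in 15 fits, on Cox6a2 in 6 and on Ndufc2 in 1, with adjusted p of up to 0.115, 0.0752 and 0.0512, and the 5 other calls were kept. Pituitary markers averaged 8.01 to 11.02 in DBA/2J, 4.95 to 8.8 in AKR/J and 4.61 to 9.8 in C57BL/6J brain, and red cell markers 4.27 to 4.76, 4.47 to 4.86 and 4.75 to 5.39 in the same order, and their part in the strain differences was not tested. Atp5g1 ran from 10.23 to 10.41 in DBA/2J brain, from 10.26 to 10.49 in AKR/J and from 9.99 to 10.14 in C57BL/6J, with C57BL/6J again below both without overlap and differences of 0.30 ± 0.06 (adjusted p 0.00433) and 0.31 ± 0.06 (adjusted p 0.00269). Atp5g2, which encodes the same mature c subunit, ran from 10.25 to 10.49 in DBA/2J, from 10.36 to 10.59 in AKR/J and from 10.16 to 10.29 in C57BL/6J. Cox6a2, the heart and muscle isoform of a complex IV subunit, ran from 6.33 to 6.67 in AKR/J brain and from 6.73 to 7.35 in C57BL/6J, without overlap.

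In both tissues, AKR/J minus C57BL/6J was called for 4 genes, which is 14.8% of the 27 liver genes and 50% of the 8 brain genes, and all 4 had the same direction. In liver and brain the differences were -0.33 and -0.76 for Ndufaf1, 0.38 and 0.31 for Atp5g1, -0.21 and -0.29 for Ndufc2, and 0.26 and 0.22 for Ndufv3. For DBA/2J minus C57BL/6J, Atp5g1 alone was called in both tissues. The overlap over all genes was not counted for either pair of strains. The 2 tissues share no array, and no label says whether they came from the same mice. Without the 2 AKR/J controls of conflicting ZT, 2 genes remained called for AKR/J minus C57BL/6J in brain (2.4% of all genes in that fit), Atp5g1 (0.35) and Atp5g2 (0.30). Without the doubted arrays 14 were called in brain (9.41% of all genes in that fit), 8 of them among the genes called over all arrays.

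Several probe sets measured 53 of the 94 genes, and for Uqcr10 they disagreed. Uqcr10 encodes a small subunit of complex III. Its brightest probe set, 1424364_a_at, was called higher in AKR/J than in C57BL/6J liver, by 0.40 ± 0.08 (adjusted p 0.00161), and differed by -0.01 in brain. The other 2 probe sets were lower in AKR/J in both tissues by far more. Probe set 1434340_at measured 4.41, 4.41 and 4.44 in sleep-deprived AKR/J liver and 4.58, 4.47 and 4.42 in AKR/J controls. The same probe set ran from 8.46 to 8.61 in DBA/2J liver and from 7.82 to 8.27 in C57BL/6J liver. AKR/J minus C57BL/6J was -3.68 ± 0.07 in liver (adjusted p 7.43e-18) and -3.35 ± 0.13 in brain (adjusted p 1.45e-11) on this probe set. The AKR/J values, 3.84 to 4.59, lie near the median of all probe sets (4.10 in liver and 4.77 in brain) and are not shown to be above background. The sizes are therefore lower bounds on the difference in signal of this probe set alone. They set no bound on the expression of the gene, for which the brightest probe set gave no such difference.

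Probe set 1434341_x_at of Uqcr10 gave AKR/J minus C57BL/6J differences of -1.55 ± 0.13 in liver (adjusted p 6.75e-08) and -1.10 ± 0.06 in brain (adjusted p 3.52e-09). No value of AKR/J overlapped the other strains on either of these probe sets in either tissue. Averaging the 3 probe sets would have turned the liver difference to -1.61 with an adjusted p of 3.46e-11. The 3 probe sets of 1 gene thus give no single direction for Uqcr10 in AKR/J, and a strain's sequence under the probes, an alternative transcript end or a probe set that reads another transcript was not tested.

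**Figure D4:**
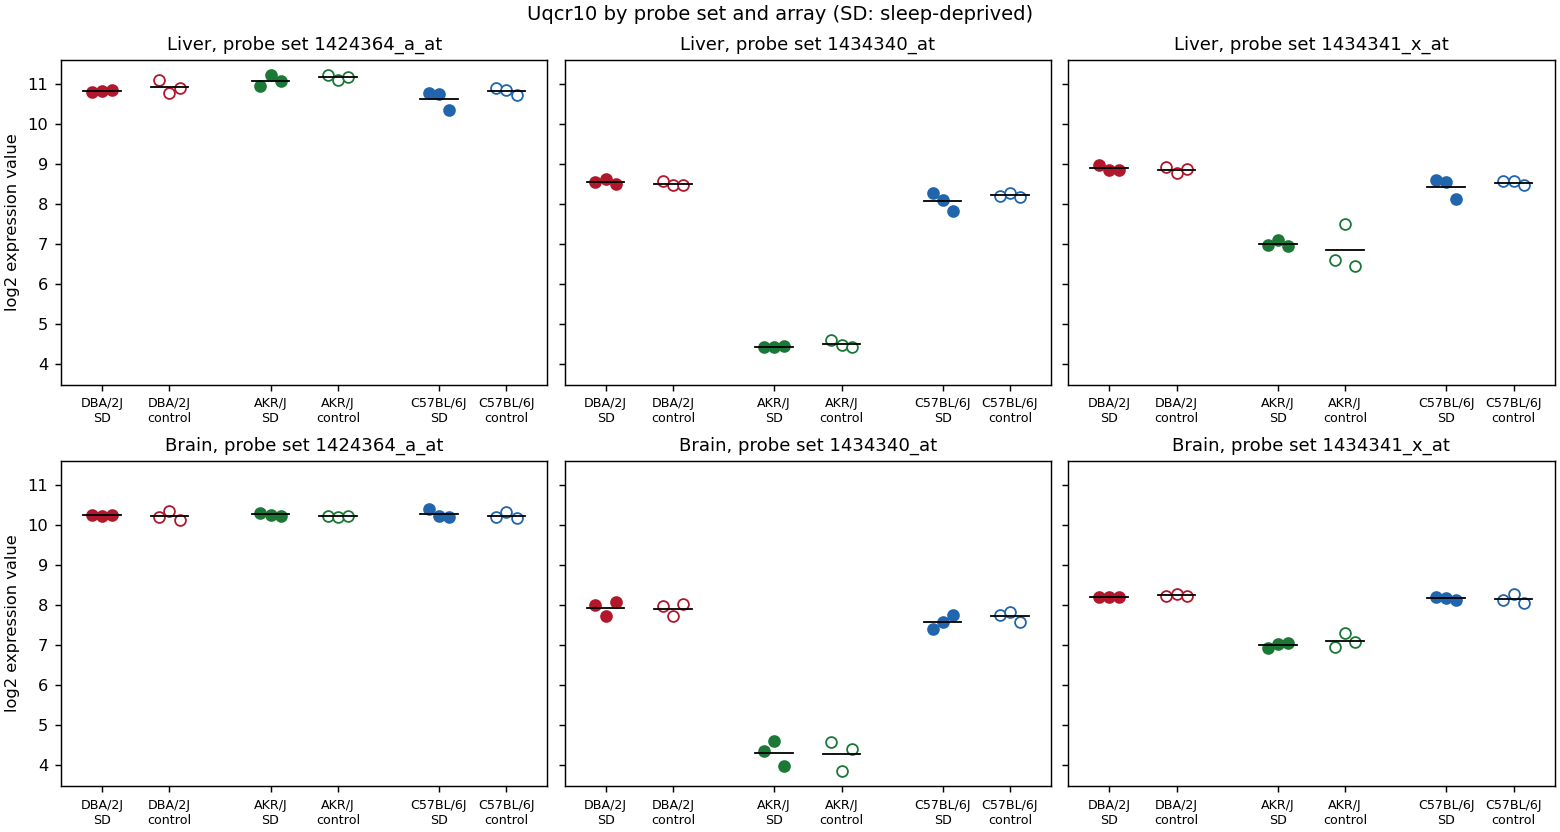
Log2 expression value of the 3 probe sets of Uqcr10 (columns) on every array of liver (top) and brain (bottom), by strain, with sleep-deprived arrays filled and left of the open controls. Lines are means of 3 arrays. Probe set 1434340_at lies between 3.84 and 4.59 on all AKR/J arrays and at 7.39 or above on the others, while 1424364_a_at shows no such gap.

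Other genes had smaller disagreements. The second probe set of Atp5g1, with a brain level of 3.85, was lower in AKR/J than in C57BL/6J brain by -0.77 ± 0.13, against 0.31 on the bright one. In Ndufa12, an accessory subunit of complex I, all 3 bright probe sets were higher in AKR/J than in C57BL/6J liver, by 0.42, 0.50 and 0.52. Only 2 of these 3 were higher in DBA/2J than in C57BL/6J liver, by 0.48 and 0.60, against 0.04 on the brightest. Of the 16 genes with several probe sets called for AKR/J minus C57BL/6J in liver, 8 had another probe set called in the same direction, 1 (Uqcr10) had others called in the opposite direction, and 7 had no other probe set called.

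One liver array carried muscle transcripts, and the muscle isoforms of complex IV were high on that array. Sleep-deprived DBA/2J array 2 measured 11.71 for skeletal muscle actin Acta1, 9.78 for muscle creatine kinase Ckm and 8.88 for fast troponin T Tnnt3. On the 17 other liver arrays these genes ran from 3.61 to 4.08, from 4.44 to 4.84 and from 3.36 to 3.8. Of the 6 markers in the muscle list, Mb (4.33), Myh4 (3.33) and Actc1 (3.75) lay near or within the range of the other arrays, and the mean of the list was 6.96, against 3.82 to 4.01 elsewhere. Of the 3 brown fat markers, Ucp1 and Cidea were at 3.28 and 3.52 on this array, within the range of the others, and Elovl3 was at 11.74, against 9.98 to 11.44. The mean of these 3 was 6.18 on this array, against 5.61 to 6.12 on the others. On the same array, Cox8b measured 8.08, against 3.96 to 4.64 on the others, and Cox6a2 8.25, against 5.59 to 6.08. Cox7a1, the heart and muscle isoform of subunit 7a, measured 7.47, against 3.35 to 4.70.

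Without that array, Cox7a1 still differed between DBA/2J and C57BL/6J. Its values in DBA/2J liver were 4.70, 7.47 and 4.09 after sleep deprivation and 4.45, 4.12 and 4.57 in controls, and in C57BL/6J liver 3.78, 3.95 and 3.75 after sleep deprivation and 3.56, 3.57 and 3.35 in controls. The difference was 1.24 ± 0.35 with an adjusted p of 0.0237 over all arrays, and 0.73 with an adjusted p of 6.29e-05 without the muscle array. Without C57BL/6J control array 3 it was 1.21 and not called (adjusted p 0.0531). The 5 other DBA/2J arrays lay above all 6 C57BL/6J arrays and above all 6 AKR/J arrays, which ran from 3.74 to 3.88. These levels are near the median of all liver probe sets, 4.10. Counts for the whole list moved little without the array, to 18 genes called for DBA/2J minus C57BL/6J and 26 for AKR/J minus C57BL/6J, and 0 for sleep deprivation.

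**Figure D5:**
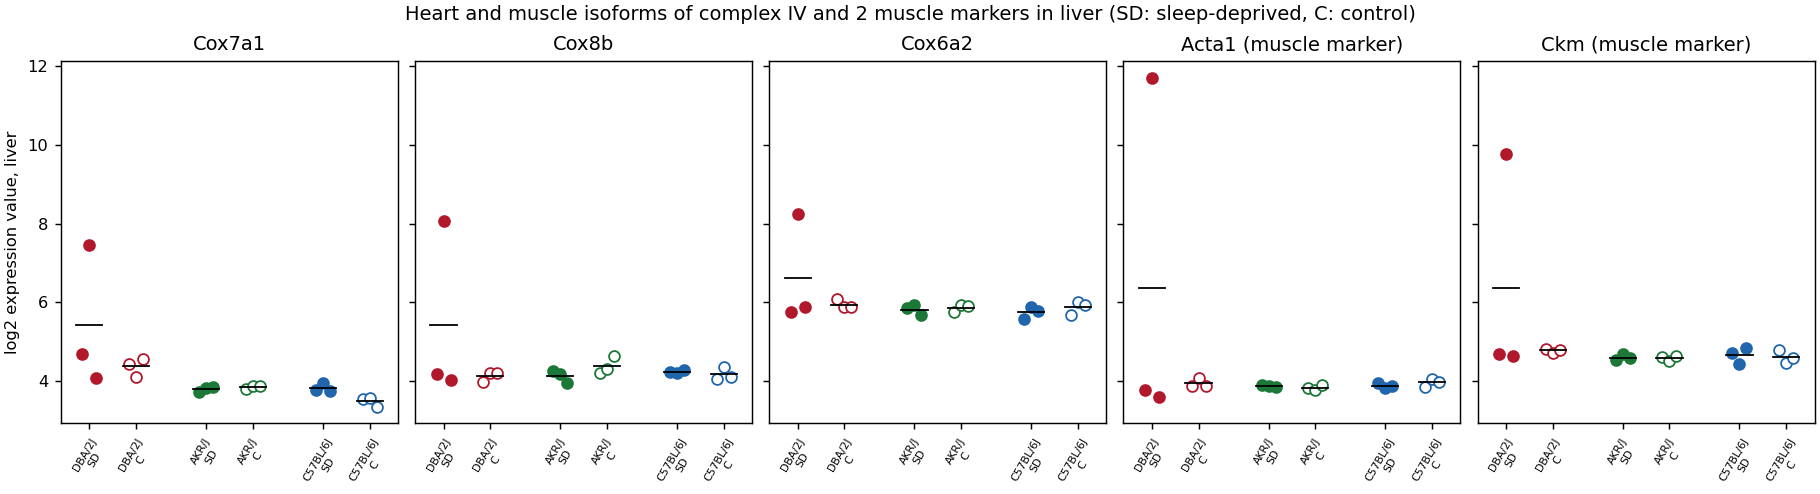
Log2 expression value in liver of 3 heart and muscle isoforms of complex IV (Cox7a1, Cox8b and Cox6a2) and of the muscle markers Acta1 and Ckm on every array, by strain, with sleep-deprived arrays (SD) filled and left of the open controls (C). Lines are means of 3 arrays. One sleep-deprived DBA/2J array is high in all 5 panels, and the other DBA/2J arrays are above both other strains for Cox7a1 alone.

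Other genes of the pathway were read from lists of cofactors and of neighbouring pathways. Their counts after sleep deprivation stand beside 4.88% of all genes called in liver and 2.55% in brain. No list was tested against other genes, so the called genes are described singly. After sleep deprivation, 1 of 24 electron carriers and assembly factors of complexes III and IV was called in liver (Coa7, a complex IV assembly factor, at -0.24) and 0 in brain. Of 5 complex V assembly and regulatory genes, Fmc1 was higher in liver (0.26), and none was called in brain. Of 7 further complex I assembly genes, 0 were called in liver and 1 in brain (Foxred1, at -0.21). Of 11 citric acid cycle genes and 12 regulators of mitochondrial gene expression, including Ppargc1a, Nrf1, Gabpa and Tfam, 0 were called in either tissue.

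Between strains, the counts in the other lists are set beside the 10.5% and 10.9% of all genes called higher in AKR/J and in DBA/2J than in C57BL/6J liver, and the 23.9% and 23% of bright genes. No difference between a list and other genes was tested. AKR/J was called higher than C57BL/6J for 12 of the 24 carriers and assembly factors of complexes III and IV and lower for 0, and DBA/2J was called higher for 10 and lower for 0. Sco2, a copper chaperone of complex IV, was higher by 0.97 in AKR/J and by 0.84 in DBA/2J. Of 7 further complex I assembly genes, 4 were called higher in AKR/J, with Timmdc1 highest at 1.28, and 3 were called higher in DBA/2J. Citric acid cycle genes split: 5 of 11 were called higher and 2 lower in AKR/J, and 4 higher and 2 lower in DBA/2J, with Cs, the citrate synthase, at 0.26 and 0.49 and Fh1, the fumarase, at -0.35 and -0.38. Of the 5 complex V assembly and regulatory genes, 2 were called higher and 0 lower in AKR/J, and 1 higher and 2 lower in DBA/2J. Of the 12 regulators, 1 was called higher in AKR/J and 3 in DBA/2J.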

How the data were processed

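RNA of 36 tissue pools was measured on Affymetrix arrays. The authors deposited log2 expression values made with RMA, per the submitters' processing notes (version not given in the sources used here), and arrays have no read depth, so their number limits the precision. From the 45101 probe sets, 64 controls were removed. In each tissue, limma 3.58.1 (R 4.3.3) was fitted with 6 group means over 18 arrays, and p-values were adjusted by Benjamini-Hochberg over 45037 probe sets, with a threshold of 0.05. One probe set stands for each gene, namely the brightest on average in that tissue. The analysis was tested on simulated data. Genes named are called members with the largest changes per comparison, the 2 largest changes per complex, the smallest p of interactions and a fixed set of well-known subunits. Other members named were chosen after their values were seen. Members and lists were chosen with earlier results of these data known. Alternatives changed the arrays included, the prior variance, the probe set rule and a replicate block. Deviations of same-numbered arrays correlated at -0.42 to 0.41 in brain and at -0.12 to 0.22 in liver. The correlation was over 0.1 for 4 of 9 brain pairs and 1 of 9 liver pairs. No label says that the numbers pair the samples, and so few pairs cannot exclude a shared litter, day or batch.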

Additional observations from a re-analysis of the deposited data

How the results depend on the processing

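Of the counts of called members recomputed under the alternatives, 476 stayed within 1.5 times the main count and 44 moved further. The 476 include every result whose main count was 0, and all 44 belong to results with a main count above 0. The tally therefore overstates how stable the counts above 0 were. Without the 2 AKR/J controls of conflicting ZT, brain counts were 0 for sleep deprivation, 3 for any strain difference and 2 for AKR/J minus C57BL/6J, and liver counts 17 and 7 for the same strain comparisons. Without the doubted arrays, brain counts were 4 for sleep deprivation (5.53% of all genes in that fit) and 18 for any strain difference (11.9%, against 7.28% over all arrays). They were 6 for DBA/2J minus AKR/J (5.38%), 6 for DBA/2J minus C57BL/6J (6.57%) and 14 for AKR/J minus C57BL/6J (9.41%). The other counts in this section stand without the share of all genes, so their shifts are not set apart from shifts over the whole array. With AKR/J left out, brain counts were 0 for sleep deprivation and 2 for any strain difference, and the liver count of strain differences was 16. A prior variance with a trend gave 4 and 6 brain genes for DBA/2J minus AKR/J and DBA/2J minus C57BL/6J, and the mean of all probe sets gave 5 and 5. Among sleep-deprived arrays alone, brain counts were 2 for any strain, 1 for DBA/2J minus C57BL/6J and 1 for AKR/J minus C57BL/6J, and liver counts 18, 11 and 12. Among controls alone, brain counts were 1 for any strain, 0 for DBA/2J minus AKR/J, 0 for DBA/2J minus C57BL/6J and 2 for AKR/J minus C57BL/6J, and liver counts 8 for any strain, 9 for DBA/2J minus C57BL/6J and 4 for AKR/J minus C57BL/6J. The fits on controls or on sleep-deprived arrays alone used 9 arrays per tissue.

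Leaving out 1 array at a time, brain counts ran from 0 to 1 for sleep deprivation, from 4 to 14 for any strain, from 1 to 3 for DBA/2J minus AKR/J, from 2 to 4 for DBA/2J minus C57BL/6J and from 6 to 11 for AKR/J minus C57BL/6J. Liver counts ran from 21 to 33 for any strain, from 7 to 10 for DBA/2J minus AKR/J, from 16 to 22 for DBA/2J minus C57BL/6J and from 20 to 28 for AKR/J minus C57BL/6J, and the other counts stayed at 0. With the mean of all probe sets, AKR/J minus C57BL/6J reversed for Uqcr10 in liver (-1.61) and for Atp5g1 in brain (-0.23, adjusted p 0.133 in limma). The replicate block gave 1 brain gene for sleep deprivation, 6 for any strain, 1, 3 and 7 for the strain pairs in the order above, and 33, 8, 21 and 27 liver genes for any strain and the same pairs. Under the block the brain calls on Ndufv3 (AKR/J minus C57BL/6J, adjusted p 0.0576) and Cox8a (any strain, adjusted p 0.0565) were lost. Of the called strain differences, 18 of 27 (AKR/J minus C57BL/6J), 15 of 22 (DBA/2J minus C57BL/6J) and 7 of 8 (DBA/2J minus AKR/J) in liver, and 5 of 8, 2 of 3 and 1 of 1 in brain, were kept in every fit without 1 array. The causes of these shifts were not tested.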
